A study of Rattus norvegicus with 16 samples.

Results

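The effect of the inhibitor was followed in the saline-injected knees of rats, by setting the 4 synovial libraries titled contralateral inhibitor against the 4 titled contralateral vehicle. These 8 libraries are those of the 16 in the series that carry either title, so membership rests on the labels and on no measured value. In each rat monoiodoacetate (MIA), 2 mg in 50 µl, was injected through the patellar ligament of 1 knee and 50 µl of saline into the opposite knee, and the synovial membranes were taken 4 weeks later. The contralateral vehicle and contralateral inhibitor groups are therefore saline knees of animals whose other knee was injured, and they differ in their labels by vehicle or inhibitor alone. The MIA vehicle and MIA inhibitor groups (n = 4 libraries each) are used here only beside them. The inhibited protein is fatty acid binding protein 5 (FABP5), according to the series title. The sources used here do not state the compound, its dose or route, or the strain, sex and age of the rats. The labels do not say whether each library of a group is a separate rat, so a p-value here measures library-to-library spread, which may in part be technical.

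FABP5 is a small cytosolic protein that binds fatty acids and endocannabinoids and carries them to enzymes and to nuclear receptors, and its inhibitors are studied for effects on pain and inflammation. The synovium is the membrane that lines the joint, a thin layer of macrophage-like and fibroblast-like cells over loose connective tissue with fat and vessels. MIA blocks glycolysis and kills cartilage cells, which is why it is used to model osteoarthritis pain. The saline knee serves as the within-animal control of that model, and a comparison of treatments in it asks what the inhibitor does in a joint that received no MIA.

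The files list transcripts by Ensembl identifier, and 0 of their 46726 identifiers could be joined to a gene symbol. Transcripts are therefore described as groups, 4 are given by identifier, and neither FABP5 itself nor markers of synovial, muscle, fat or immune cells were analysed here. In bulk tissue, fewer cells of a type and less RNA per cell cannot be told apart. The 26956 transcripts that passed the filter on low counts were tested. Levels are CPM, counts scaled to a fixed library size after TMM scaling. TMM sets libraries to a common level by their bulk of shared transcripts. A transcript is called where its adjusted p was under 0.05 in edgeR's quasi-likelihood F test. A log2 change of 1 is a doubling with inhibitor relative to vehicle.

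Totals ran from 27641038 to 31142101 counts in the contralateral vehicle libraries and from 15614902 to 27916996 in the contralateral inhibitor libraries. The TMM factors were 0.585 to 0.813 in the former and 0.914 to 1.22 in the latter, so that the scaling itself differed between the groups without overlap. A principal component analysis of log2(CPM + 1) put 44% of the variance on its first axis, where the contralateral vehicle libraries scored 87.5 to 190.5 and the other 12 libraries, MIA vehicle included, -84.3 to 14. All results below rest on these vehicle libraries, and whether they stand apart through the treatment or the makeup of the tissue sampled was not tested. Contralateral vehicle replicate 1 and contralateral inhibitor replicate 4 lay apart from their groups on the second principal component, as did 1 library of each MIA group. Contralateral vehicle replicates 2 and 3 also stood apart in the median gap between a transcript's length and its effective length, a measure that grows with fragment length, at 256.9 and 254 bases against 173 to 212 bases in the other 14 libraries. Results are also given without the libraries apart on the second component and without these replicates 2 and 3.

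In saline knees many transcripts differed between the inhibitor and vehicle libraries. Of the 26956 transcripts tested, 6440 (23.9%) were called, 3269 (12.1%) higher and 3171 (11.8%) lower with inhibitor. The falls were larger than the rises. Among called transcripts with counts in both groups, the 3162 rises had a median log2 change of 1.13, with quartiles of 0.83 and 1.58. The corresponding 3065 falls had a median of -1.47, with quartiles of -2.51 and -0.98. A change of more than 4-fold was found for 379 (12%) of these rises and for 1019 (33.2%) of these falls. Beyond 16-fold there were 25 rises (0.791%) and 384 falls (12.5%). A further 107 rises and 106 falls had no count in any library of 1 group, and with those set at their bounds (a floor of 3 counts per library) the medians over all rises and all falls were 1.15 and -1.52.

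**Figure D1:**
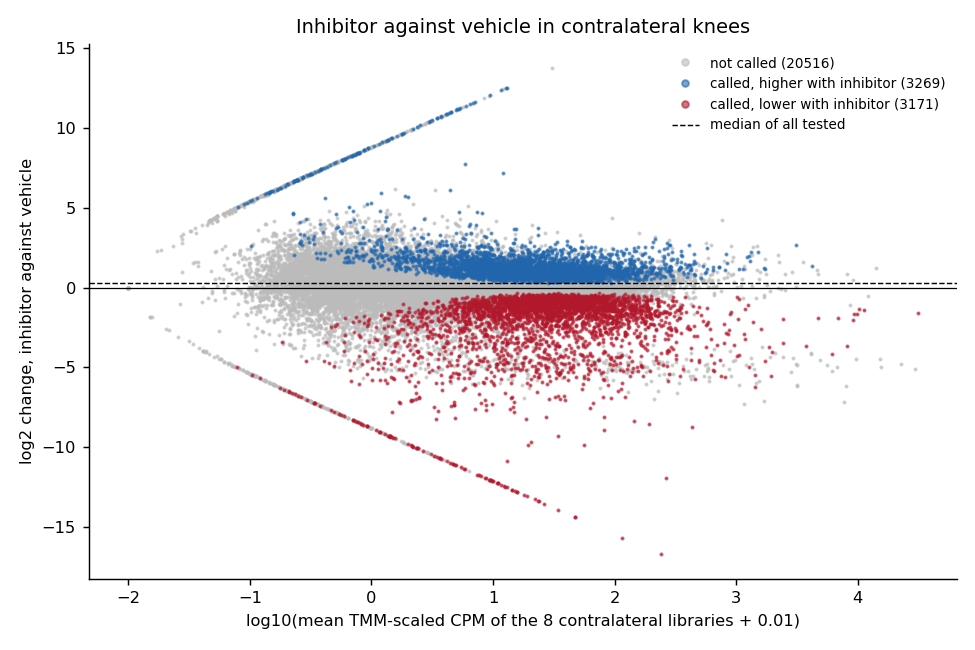
Log2 change of each tested transcript in contralateral knees (inhibitor against vehicle, n = 4 libraries each) against the log10 of its mean level in the 8 libraries. Blue points are the 3269 called higher, red points the 3171 called lower, grey points were not called, and the dashed line is the median of all tested, 0.28. The red points reach farther from 0 than the blue ones at high levels, and the 2 straight diagonal edges are transcripts with no count in 1 group, whose estimated change is not a measured size.

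The balance of rises and falls depended on how libraries were scaled. Over all transcripts tested, the log2 change had a median of 0.28 under TMM and of 0.12 under DESeq2 size factors, a shift of -0.16. With those factors in the same edgeR fit, 2429 transcripts were higher and 3777 lower, and rises made up 39.1% of the calls against 50.8% in the TMM scaling. All 3171 falls were also called as falls with these factors, while 2429 of the 3269 rises were, in the direction that such a shift moves every transcript. In each of the 16 fits without 1 library, 2220 falls (70%) were called again in the same direction, and so were 1122 rises (34.3%). The median over all transcripts fell from 0.28 to 0.12 without contralateral vehicle replicate 2 and to 0.09 without contralateral vehicle replicate 4. Without MIA vehicle replicate 1, which is in neither of the groups compared, it was 0.11. Leaving out a contralateral vehicle replicate changes both the scaling and the mean of its group. The part of scale in the lost calls was not tested.

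Among the fits without 1 library, rises were fewest without contralateral vehicle replicate 2 or 4. Without replicate 2 there were 1354 rises and 2970 falls, and without replicate 4 there were 1311 and 2705. Leaving out MIA vehicle replicate 1, which is in neither of the groups compared but enters the scaling, gave 2391 rises and 3933 falls. Without contralateral vehicle replicate 1 there were 5198 and 3785. With the 8 contralateral libraries fitted alone, 3539 transcripts were called, 1080 higher and 2459 lower. Without contralateral vehicle replicates 2 and 3, those with the larger gap in effective length, 934 were higher and 2454 lower. The part of effective length in the result was not tested beyond these values. Without the 4 libraries apart on the second component the calls rose to 5172 higher and 5661 lower.

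Levels of individual libraries gave a like count after TMM scaling, in part for other transcripts. Among called transcripts, the groups did not overlap for 2264 of the 3269 rises and 2568 of the 3171 falls. The 4 inhibitor libraries lay above the 4 vehicle libraries for 3048 transcripts (11.3%) and below them for 3348 (12.4%) after TMM scaling. With DESeq2 size factors these numbers were 2418 (8.97%) and 3773 (14%). With total counts alone, which leave the composition of the libraries uncorrected, they were 7212 (26.8%) and 1921 (7.13%), so the larger direction turned with the scaling.

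Single transcripts show the sizes behind these counts, and 4 were picked by rule. They are the 2 largest rises and the 2 largest falls by log2 change among called transcripts averaging 1 CPM or more in both groups and no overlap between them, and 2039 rises and 2229 falls met those conditions. A call and no overlap were thus conditions of the choice and not findings about these transcripts. Among all called transcripts with counts in both groups, the largest rise was 7.74 and the largest fall 11.9 on the log2 scale.

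ENSRNOT00000110292.1 (5661 bases) had the largest fall of these. Its level in contralateral vehicle replicates 1 to 4 was 137, 486, 353 and 550 CPM. In contralateral inhibitor replicates 1 to 4 it was 0, 1.7, 0 and 2.53 CPM. Every vehicle library was thus far above every inhibitor library, and the lowest vehicle value was that of replicate 1. The log2 change was -8.57 ± 1.74 (SE; edgeR adjusted p = 0.00365), and it was called in all 27 alternatives, with a log2 change from -11.49 to -5.54 and an adjusted p of at most 0.0152. It was -9.89 without the 4 libraries apart on the second component. In MIA knees its mean was 3.06 ± 3.1 CPM (vehicle) and 0.367 ± 0.441 CPM (inhibitor; SD, n = 4 each), against 1.06 ± 1.27 CPM in the contralateral inhibitor libraries. The difference between the effect in contralateral and in MIA knees was -5.54 ± 2.00 on the log2 scale (SE) and was not called (edgeR adjusted p = 0.0979).

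ENSRNOT00000073370.3 (7014 bases) showed the same order of vehicle libraries at a lower level. Its values were 61.6, 220, 141 and 325 CPM in contralateral vehicle replicates 1 to 4 and 0.402, 0, 3.72 and 2.1 CPM in contralateral inhibitor replicates 1 to 4. Replicate 4 was again the highest vehicle library and replicate 1 the lowest, and the groups did not overlap. The log2 change was -6.91 ± 1.91 (SE; edgeR adjusted p = 0.0188). The call was lost without contralateral inhibitor replicate 1 (adjusted p = 0.0526) and without contralateral vehicle replicates 2 and 3 (adjusted p = 0.0516), with log2 changes of -6.58 and -7.19. Without the 4 libraries apart on the second component it was -7.57 (adjusted p = 0.0163). MIA vehicle replicates 1 to 4 held 11.5, 0.111, 0.145 and 5.18 CPM, and the MIA inhibitor libraries held 2.53 CPM in replicate 3 and none in the other 3.

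ENSRNOT00000110113.1 (7309 bases) had the largest rise under these conditions. It was at 31, 23.6, 37.4 and 21.9 CPM in contralateral inhibitor replicates 1 to 4, and at 0, 2.01, 6.99 and 0 CPM in contralateral vehicle replicates 1 to 4. The inhibitor libraries were close together, and all lay above the vehicle ones, as the rule required. The log2 change was 3.64 ± 1.12 (SE; edgeR adjusted p = 0.0304). The call was lost in 5 of 27 alternatives, which were the fit of the 8 libraries alone (adjusted p = 0.117) and the fits without contralateral inhibitor replicate 1 or 3 or contralateral vehicle replicate 2 or 4 (adjusted p = 0.053 to 0.0902), with log2 changes of 3.06 to 3.61. Without contralateral vehicle replicate 3, which held most of the vehicle counts, the log2 change was 5.38 (adjusted p = 0.00875). Without replicates 2 and 3 no vehicle count is left, so the estimate of 12.68 there measures no size, and the other alternatives gave 2.60 to 4.24. The MIA groups had means of 25.1 ± 11.4 CPM (vehicle) and 31.5 ± 21.4 CPM (inhibitor), against 28.5 ± 7.16 CPM in contralateral inhibitor knees (SD, n = 4 each). Its counts were not whole numbers, like those of both falls, because Salmon shares out a read among all transcripts it matches. A listed 0 may be an outcome of this sharing; that was not tested.

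ENSRNOT00000000256.5 (814 bases) was the next largest rise, and its counts were whole in all 8 libraries. Contralateral inhibitor replicates 1 to 4 held 6.94, 18.8, 19.3 and 3.37 CPM, and contralateral vehicle replicates 1 to 4 held 2.21, 0.384, 1.15 and 0.691 CPM. The groups did not overlap, but inhibitor replicate 4 and vehicle replicate 1, the libraries apart on the second component, were the nearest to each other. The log2 change was 3.44 ± 0.83 (SE; edgeR adjusted p = 0.00961). The call was lost without contralateral vehicle replicates 2 and 3 (adjusted p = 0.0982, log2 change 2.95), and the log2 change was 4.12 (adjusted p = 0.000277) without the 4 libraries apart on the second component. In MIA knees its mean level was 17.7 ± 8.95 CPM (vehicle) and 11.9 ± 12.2 CPM (inhibitor; SD, n = 4 each), and the log2 change there was -0.57 ± 0.75 (SE; edgeR adjusted p = 1). The difference of 4.01 ± 1.11 on the log2 scale (SE) between the effects in the knees was called (edgeR adjusted p = 0.0362).

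**Figure D2:**
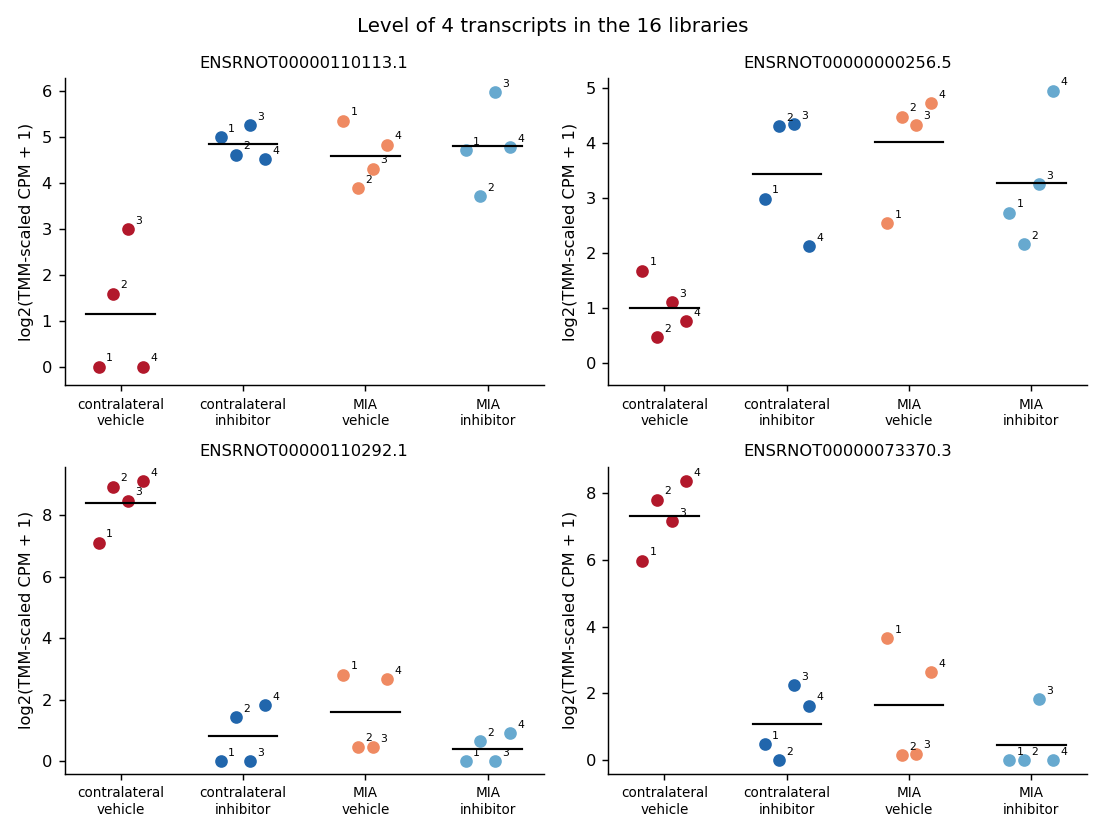
Level of the 4 named transcripts in each of the 16 libraries, as log2(TMM-scaled CPM + 1), by group. Each point is a library with its replicate number, and black lines are group means. The contralateral vehicle libraries lie below the other groups for ENSRNOT00000110113.1 and ENSRNOT00000000256.5 and above them for ENSRNOT00000110292.1 and ENSRNOT00000073370.3.

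Some transcripts were found in the libraries of 1 treatment and had no count in the other. With at least 10 counts in every library of the group that had them, 58 were present with vehicle and had no count with inhibitor, and 28 the reverse. The 58 had a median level of 10.3 CPM in vehicle knees, with a range from 0.657 to 478 CPM, and were lower by a median of at least 81.1-fold. Of these, 56 were called. The 28 had a median level of 2.72 CPM in inhibitor knees, from 0.528 to 26.2 CPM, were higher by a median of at least 18.9-fold, and 24 were called. These bounds use a floor of 3 counts per library and cover counting error only. Of all tested transcripts 23.9% were called. Both sets were picked for having counts in 1 group alone, so their calls largely follow from that choice. All 28 had counts in both MIA groups. Of the 58, 13 had no count in any MIA library, 44 had counts in MIA vehicle and 34 in MIA inhibitor knees. None of the 58 and 1 of the 28 had whole counts throughout, so nearly all of these estimates rest on divided reads.

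Transcripts with more counts were called more often and leaned to the lower direction. Among 1642 transcripts averaging 100 CPM or more over the 8 libraries, 296 were higher and 462 lower, 46.2% in all. Between 10 and 100 CPM, 1888 were higher and 2001 lower, 37.9% of 10269. From 1 to 10 CPM rises outnumbered falls, with 933 against 640 (16.1% of 9749), and under 1 CPM there were 152 and 68 (4.15% of 5296). CPM is not per length, so these classes reflect the number of counts behind a test and not molar abundance.

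The split also differed by transcript length. At 10 CPM or more, 79 transcripts under 1000 bases were higher and 180 lower of 685 tested. Between 1000 and 2000 bases 513 were higher and 668 lower, and between 2000 and 4000 bases the numbers were near even, at 1031 and 1024. At 4000 bases or more 561 were higher and 591 lower. The median log2 change over all transcripts of a class was 0.00 for those under 1000 bases and 0.16 for those of 4000 or more, a difference that was not tested.

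Whether reads were divided between transcripts also went with direction. Counts were taken as whole within a tolerance of 1e-06. Of 4446 tested transcripts with whole counts in all 8 libraries, 714 were higher and 457 lower, 26.3% in all. Among the 22510 with divided reads 2555 were higher and 2714 lower, 23.4% in all. At 10 CPM or more the share called was 39.5% with whole counts and 38.9% with divided reads. Rises made up 57.5% and 45.1% of the calls in these classes. The part of read division in the calls was not tested.

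Of the 100 transcripts with the highest mean CPM in contralateral vehicle libraries, 88 had a lower estimate with inhibitor, and the groups did not overlap for 79 lower and 1 higher. Their median log2 change was -3.72 with a median SE of 0.81, and 40 were called lower and 1 higher. Lower estimates beyond 16-fold were found for 48 of them, of which 12 were called. Of the 100 most abundant in contralateral inhibitor libraries, 24 were called higher and 13 lower. Over all tested transcripts, 12.4% lay lower and 11.3% higher without overlap, and 11.8% were called lower and 12.1% higher. The lists shared 39 transcripts. Both were ranked on the libraries compared, so these counts describe the lists and do not test them.

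Fewer transcripts held the counts of vehicle libraries. The 100 most abundant transcripts of a library held 47.8% ± 5.31 of its counts with vehicle and 28.5% ± 3.00 with inhibitor (SD, n = 4 each), a difference of -19.3 percentage points. An exact two-sided permutation test gave p = 0.0286, the smallest that 4 against 4 libraries can give, and 0.0571 after Benjamini-Hochberg adjustment over 4 measures, so the adjusted value misses 0.05. The number of transcripts that together held 50% of the counts was 254, 89, 173 and 74 in contralateral vehicle replicates 1 to 4. In contralateral inhibitor replicates 1 to 4 it was 838, 867, 918 and 487. The highest vehicle library was therefore below the lowest inhibitor library (exact permutation p = 0.0286, adjusted 0.0571). In MIA knees the number was 691.5 ± 135.4 with vehicle and 835.8 ± 245.2 with inhibitor (SD, n = 4 each).

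**Figure D3:**
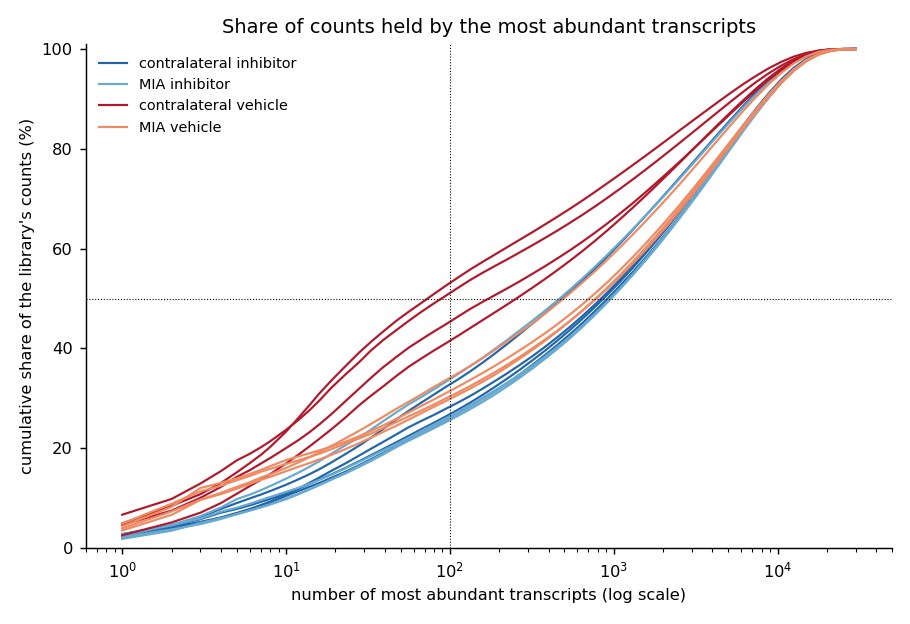
Cumulative share of a library's counts (%) held by its most abundant transcripts, against their number on a log scale, with 1 line for each of the 16 libraries. Dotted lines mark 100 transcripts and 50% of counts. The 4 contralateral vehicle lines cross 50% at 74 to 254 transcripts, and the 4 contralateral inhibitor lines at 487 to 918.

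The number of transcripts detected did not show a difference of that kind. At a common depth of 15614860 counts, 25982 ± 1267 transcripts were expected to have a count in vehicle and 26770 ± 1613 in inhibitor libraries (SD, n = 4 each; exact permutation p = 0.457, also after adjustment). The mean transcript length weighted by counts was 4169 ± 578 bases with vehicle and 3291 ± 147 bases with inhibitor (SD, n = 4 each; exact permutation p = 0.0571, adjusted 0.0762). Weighted by TPM, which removes the part of length in the counts, the difference turned to 143 bases longer with inhibitor.

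The counts held by the called sets differed in the same libraries. Those called lower held 24.2%, 35.1%, 31.8% and 43.3% of the counts in contralateral vehicle replicates 1 to 4, and 13.2% to 15.7% in the inhibitor libraries. Those called higher held 10.5%, 4.89%, 7.39% and 3.34% in the same vehicle libraries, and 20% to 24.9% with inhibitor. Within the vehicle group the libraries with the most counts in the lower set had the fewest in the higher set. The sets were called from the contrast of these groups, so these shares are descriptive. The MIA libraries are in neither group of the contrast, but they share its filter, scaling and spread. In them the lower set held 12.4% ± 1.27 with vehicle and 14% ± 0.867 with inhibitor, and the higher set 19% ± 0.643 and 20.8% ± 1.74 (SD, n = 4 each). The ranges of the MIA vehicle libraries, 11.4% to 14.2% and 18.3% to 19.8%, lay outside those of the contralateral vehicle libraries. Both sets were picked for setting the contralateral vehicle libraries apart. Shares outside their ranges in other libraries are therefore favoured by the choice itself and are descriptive too.

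**Figure D4:**
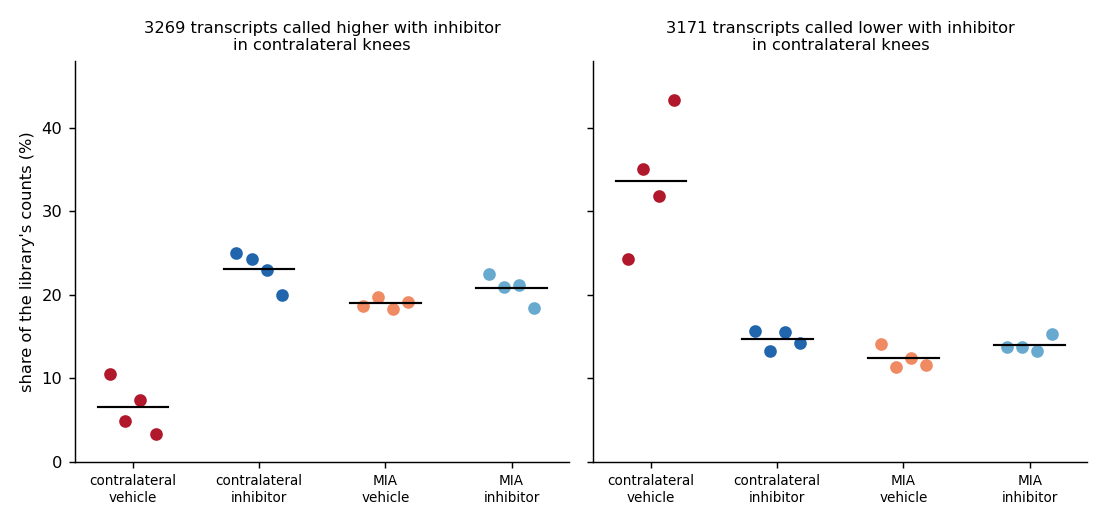
Share of each library's counts (%) held by the 3269 transcripts called higher (left) and the 3171 called lower (right) with inhibitor in contralateral knees. Each point is a library, in replicate order from left to right within a group, and black lines are group means. The sets were called from the contralateral libraries, so the shares are descriptive. The contralateral vehicle points spread from 3.34% to 10.5% on the left and from 24.2% to 43.3% on the right, and the other 12 libraries lie between 18.3% and 24.9% on the left and between 11.4% and 15.7% on the right.

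In saline knees, distances over all tested transcripts were on average longer between the treatments than within them. The root mean square difference in log2(CPM + 1) between a contralateral vehicle and a contralateral inhibitor library was 1.38 on average over 16 pairs, from 0.939 to 1.73. Within the vehicle group it was 0.924 (0.631 to 1.21) and within the inhibitor group 0.917 (0.65 to 1.14), over 6 pairs each, so the ranges overlap. In MIA knees it averaged 0.921 between the treatments, 0.842 within vehicle and 0.87 within inhibitor. From a contralateral inhibitor to a MIA inhibitor library it was 0.748 on average over the 4 pairs with the same sample number and 0.952 over the other 12 pairs. Of those 12, the pairs that included a replicate 4 lay at 1.02 to 1.19 and the rest at 0.699 to 0.887. From a contralateral vehicle to a MIA vehicle library the distance was 1.44, about as far as from a contralateral vehicle to a contralateral inhibitor library. It was 1.4 over the 4 vehicle pairs with the same sample number and 1.45 over the other 12. Vehicle replicate 1 was the closest of its group to the inhibitor libraries, at 1.18 on average, and vehicle replicate 4 the farthest, at 1.64. The shortest of the 16 distances, 0.939, was between vehicle replicate 1 and inhibitor replicate 4.

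The same treatments were compared in MIA knees, whose 8 libraries are not shared with the saline comparison. There edgeR's quasi-likelihood test called 0 of 26956 transcripts (0%), with 2335 at an unadjusted p under 0.05 (8.66%), against 10120 (37.5%) in saline knees. In MIA knees DESeq2 called 798 transcripts, limma-voom 2035 and limma-trend on TPM 7. The median SE was 0.46 on the log2 scale in each kind of knee, which is largely set by the shared fit, since it gives a transcript 1 dispersion for every group. The median SD of log2(CPM + 1) within a group was 0.422 in contralateral vehicle, 0.383 in contralateral inhibitor, 0.312 in MIA vehicle and 0.346 in MIA inhibitor knees. Transcripts whose groups did not overlap numbered 937 higher (3.48%) and 1077 lower (4%) in MIA knees. A change estimated at more than 2-fold was found for 16% of tested transcripts in MIA knees and for 39.5% in saline knees.

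Transcripts called in saline knees showed small estimates in MIA knees. The 3269 rises had a median log2 change of 0.06 there, and 1881 of them (57.5%) were positive. The 3171 falls had a median of -0.02, and 1671 (52.7%) were negative. Over all tested transcripts 52.9% had the same sign in both kinds of knee, with a Pearson correlation of 0.13 and a Spearman correlation of 0.13 across transcripts, which are not independent replicates. Among the 6440 called in saline knees the Pearson correlation was 0.30. Of the 3269 called rises, 493 had an unadjusted p under 0.05 in MIA knees and 332 of these were positive there. Of the 3171 called falls, 229 had such a p and 160 of these were negative. Over all 26956 tested transcripts 2335 (8.66%) had such a p in MIA knees. Among called transcripts the estimate in MIA knees was the larger in size for 83 rises and 25 falls. The called transcripts were picked by their saline estimates. A smaller estimate in MIA knees is therefore favoured by the choice itself.

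**Figure D5:**
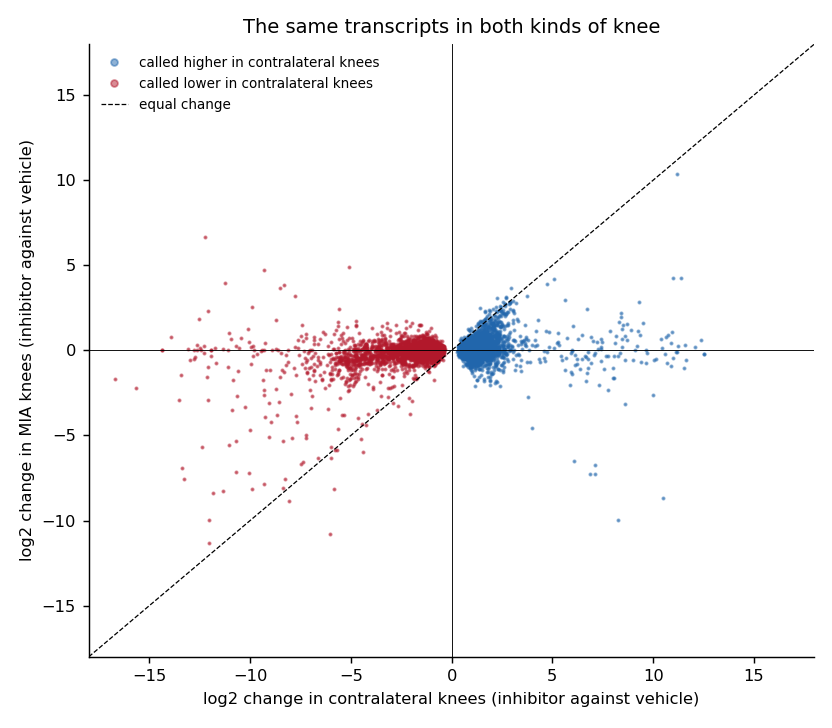
Log2 change of inhibitor against vehicle in MIA knees (vertical) against that in contralateral knees (horizontal), for the transcripts called higher (blue) and lower (red) in contralateral knees, with n = 4 libraries in each group. The dashed line marks an equal change. Most points lie near 0 on the vertical axis, with medians of 0.06 for the blue and -0.02 for the red points, and points far from 0 include transcripts with no count in 1 group.

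A test of the difference itself called 2668 transcripts (9.9%). The estimate of inhibitor against vehicle was more positive in saline than in MIA knees for 1079 of them (4%) and more negative for 1589 (5.89%). This contrast contains the saline comparison and shares its 8 libraries, so it adds no separate evidence on that comparison. The count was 5532 without contralateral vehicle replicate 1. It fell to between 1496 and 1690 without contralateral vehicle replicate 2, contralateral inhibitor replicate 2 or 3, or MIA vehicle replicate 2, 3 or 4. Among the transcripts called in saline knees the median difference was 1.03 on the log2 scale for rises and -1.54 for falls. Both medians contain the saline estimates by which these transcripts were picked.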

How the data were processed

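Total RNA of rat synovial membranes was made into directional libraries and sequenced on an Illumina NextSeq 550, per the labels' protocols. Salmon 1.4.0, fastp 0.20.1, DESeq2 1.30.0 and the build mRatBN7.2 are named, per the submitters' processing notes. No source used here states the options of Salmon. The deposited expected counts per transcript are the authors' estimates, unscaled between libraries, and the authors' TPM values take effective length into account. Lengths and effective lengths are in bases, per the file headers.

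Expected counts were rounded, kept by filterByExpr with the 4 groups (99.66% to 99.94% of a library's counts) and scaled by TMM. A quasi-likelihood F test in edgeR 4.0.16 (R 4.3.3, with limma 3.58.1; robust, two-sided) was fitted to all 16 libraries with a mean for each group, and the Benjamini-Hochberg adjustment ran over all transcripts tested, at 0.05. SEs are the absolute log2 change over the root of F. Library measures were compared by exact permutation tests. The test was checked on simulated data.

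The comparison, the rule for the 4 identifiers and the alternatives were chosen with earlier results of these data known. Gene lists and cell type markers were planned for the case that symbols could be joined, and are not analysed here, since the table of rat genes used held 0 Ensembl entries. No libraries were identical. Alternatives were other scalings, filters and tools (DESeq2 1.42.0, limma-voom, limma-trend on log2(TPM + 1)), blocks by sample number and leaving out libraries.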

Additional observations from a re-analysis of the deposited data

Results flagged for a closer look

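The change of inhibitor against vehicle differed between saline and MIA knees by the test of the difference for 2668 transcripts, and for ENSRNOT00000000256.5 among the named ones, by 4.01 on the log2 scale (edgeR adjusted p = 0.0362). The contralateral vehicle libraries stood apart from all others, MIA vehicle included, on the first principal component. Whether the difference comes from the treatment or from the makeup of those vehicle samples was not tested.

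In 32 checks of a group of 4 libraries for a lone value, 4 were met, where chance flags about 1 in 20 groups. None was in a saline knee group. In MIA inhibitor knees ENSRNOT00000073370.3 had 2.53 CPM in replicate 3 and none in the other 3 libraries. In the same group, replicate 4 held 33.8% of its counts in its 100 most abundant transcripts, and 468 transcripts held 50% of its counts, against 954 to 962 in the others. In MIA vehicle knees replicate 1 had the lowest number of transcripts expected at the common depth, 26379.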

How the results depend on the processing

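Fits without a single MIA library, which is in neither of the groups compared, gave 5741 to 6677 calls in saline knees. They are among the 21 of 27 alternatives in which the count in saline knees stayed within 1.5 times 6440. It was 3539 with the 8 saline libraries alone, 3388 without contralateral vehicle replicates 2 and 3 (an alternative chosen after seeing the data), 10833 without the 4 libraries apart on the second component, 11425 with limma-voom and 11612 with limma-trend on TPM, where 84.5% of the calls were higher, and 4016 to 8983 without single libraries. The count for the difference between knees was 1260, 6895, 8425 and 7933 in the same settings (without replicates 2 and 3, without the 4 libraries, limma-voom, limma-trend), 4933 with DESeq2, and 1496 to 5532 without single libraries. In MIA knees the count was 3 with those 8 libraries alone, 361 without the 4 libraries, 798 with DESeq2, 2035 with limma-voom, 7 with limma-trend, and 0 to 147 without single libraries, the highest without MIA vehicle replicate 1. The cause was not tested. No named transcript changed direction.

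Sample numbers were not shown to pair saline knees across treatments: same-numbered libraries' deviations from their group means correlated at -0.18, 0.14, 0.10 and 0.03. With the number as a replicate block 6477 were called (3285 higher, 3192 lower), 5857 of them in the unblocked fit too, and 0 in MIA knees. For the difference between knees, blocking by treatment and number called 2957 (1380 more positive in saline knees, 1577 more negative). Of these, 1994 were among the 2668 called without the block. Same-numbered pairs of a saline and a MIA knee correlated at 0.227 to 0.617 with inhibitor and 0.0117 to 0.217 with vehicle. Differently numbered pairs correlated at -0.424 to 0.249 with inhibitor and -0.216 to 0.143 with vehicle, so the ranges overlap.

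Leaving out single libraries moved the difference in the share of the 100 most abundant transcripts between -21.4 and -17.5 percentage points, in the number holding 50% of counts between 583 and 727, in transcripts expected at the common depth between 289 and 1583, and in weighted length between -1156 and -742 bases. With TPM the difference in weighted length reversed, to 143 bases. With a median SE of 0.46 on the log2 scale, many changes were not detectable at this depth and group size.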
